A study of Mus musculus with 15 samples.

Results

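Genes for 10 transcription factors of fat cell formation were followed here as places in the nucleus: Cebpa, Cebpb, Cebpd, Srebf1, Klf4, Klf5, Rxra, Nr3c1, Nr1h3 and Ebf1. Each locus was a position in the mouse build mm9 with 500 kb on each side. The 10 loci were picked as known regulators of adipogenesis, not by their contacts, and together they held 3141 of the 823355 HindIII sites counted. The assay was 4C-seq (circular chromosome conformation capture with sequencing), which reads the DNA that had been ligated to a chosen bait in fixed nuclei. The 3 baits were Pparg on chromosome 6, Lpin1 on chromosome 12 and Ifng on chromosome 10, so every locus described lies on another chromosome than all baits.

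The cells were 3T3-L1, a mouse fibroblast line that turns into fat cells when confluent cultures receive dexamethasone, 3-isobutyl-1-methylxanthine, insulin and serum. Cells were taken at day 0 before the cocktail, at days 1 and 2, and at day 6 as mature adipocytes, and a B lymphocyte cell line, whose name and treatment the labels do not give, was the other cell type. Each bait had 2 libraries for each of the 4 days and 1 B cell library, 27 libraries of 15 samples in all. Nothing in the labels tells whether the 2 libraries of a day came from separate cultures. A p-value here thus reflects the spread among these libraries, which may be technical. All values are ligations of DNA, so the cell types could not be checked by marker genes.

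Adipogenesis runs as a cascade. C/EBPβ and C/EBPδ (from Cebpb and Cebpd) come first, with the glucocorticoid receptor (Nr3c1) and the Krüppel-like factors (Klf4, Klf5), and they switch on PPARγ and C/EBPα (Cebpa), which then keep each other on and drive the genes of the fat cell. PPARγ binds DNA as a pair with the retinoid X receptor α (Rxra), while SREBP-1 (Srebf1) and the oxysterol receptor LXRα (Nr1h3) control lipid synthesis, and EBF1 (Ebf1) acts in both adipocytes and B cells. Of the baits, Pparg is the master gene of this cascade, Lpin1 encodes a lipid phosphatase of adipocytes, and Ifng encodes a cytokine of lymphocytes.

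For each library, the captured share of a locus is the percentage of its HindIII sites with at least 1 read. Dividing it by the captured share of all autosomes other than the bait chromosome in the same library gives the multiple used below, in which 1 means that the locus was met as often per site as the rest of the genome. A second multiple divides by the flanks, from 0.5 to 2 Mb on both sides of the position (9109 sites over the 10 loci). Libraries differed widely in depth: 116031 to 3002206 reads in all, 13067 to 697525 on the other autosomes, and a captured share there of 0.443% to 7.72%. Captured sites did not simply follow reads. On the other autosomes the Ifng library 1 of day 1 had 18627 captured sites from 34764 reads, and the Lpin1 library 2 of day 2 had 8176 from 633755. Libraries with a low captured share met a locus at few sites, as with the Pparg library 2 of day 6, which captured 18 sites over the 10 loci together.

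Libraries of a bait also held the same sites in common. The number of shared sites was set against the number that the 2 libraries' captured shares would give by chance. Between baits the median over 243 pairs was 1.34 times chance. Among the 4 Pparg libraries numbered 2 it was 13.0 to 21.1 times, between these and the Pparg B cell library 8.56 to 14.1 times, and between the Lpin1 libraries numbered 2 up to 48.1 times. Pairs of Ifng libraries shared 4.16 to 8.62 times what chance gives. What gives rise to this sharing was not tested. Unless all of it is contact that recurs from cell to cell, the libraries of a bait are less independent than the tests take them to be. Results below are therefore given also with each site counted only in the library of that bait that read it most (each site counted once). A site with equal top reads in several libraries stayed in each of them, so this setting need not remove all sharing. In the permutation tests, counts of loci called under this setting are given without the share of all windows.

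The promoters shown first are those of the loci that stood highest with the Pparg and the Lpin1 bait. They are the 250 bases before the start of Cebpb (chr2:167688665-167688914, plus strand) and of Cebpa (chr7:35119043-35119292, plus strand) from RefSeq on GRCm38.p6, a later build than the mm9 of the counts, so the numbers do not line up with the loci. Capitals mark matches on either strand to GATC, the cut of the second enzyme DpnII, to TATAAA, the TATA box, and to GGGCGG, the GC box. A match that overlaps an earlier one is not marked, as with a GGGCGG that starts within the first one marked for Cebpb.
Cebpb: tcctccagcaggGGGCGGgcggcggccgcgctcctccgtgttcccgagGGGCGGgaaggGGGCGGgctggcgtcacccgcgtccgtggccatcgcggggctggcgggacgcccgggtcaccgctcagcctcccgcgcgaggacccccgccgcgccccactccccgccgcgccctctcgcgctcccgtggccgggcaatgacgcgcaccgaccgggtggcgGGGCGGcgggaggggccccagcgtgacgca
Cebpa: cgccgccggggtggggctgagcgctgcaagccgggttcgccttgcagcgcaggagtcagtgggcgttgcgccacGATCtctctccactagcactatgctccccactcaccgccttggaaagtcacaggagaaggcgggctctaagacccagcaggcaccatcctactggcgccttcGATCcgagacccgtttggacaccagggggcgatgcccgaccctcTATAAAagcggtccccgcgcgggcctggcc
The Cebpb stretch is 81.6% G and C and the Cebpa stretch 66.4%. Neither holds AAGCTT, the HindIII cut at which 4C reads are counted, and nor does any of the 12 promoters that the table lists for 7 of the 10 genes, while 6.22% of all 32851 promoters do. GATC stood in 2 of the 12 (41.9% of all), TATAAA in 1 (12.4%) and GGGCGG in 5 (32.7%); the 4 motifs share no letters in the stretches shown.

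With the Pparg bait, 6 of the 10 loci were met more often than the genome at large, and Cebpb most of all. These loci were higher than the other autosomes (Cebpb, Rxra, Klf4, Srebf1, Cebpd and Nr1h3), none was lower, and the other 4 did not pass. Of all 2257 windows of 1 Mb tested in the same way, 22.4% were higher and 41.7% lower, with a median multiple of 0.77 against 1.56 for the 10 loci. These medians, those of the other baits and the percentiles below use captured sites summed over the 8 libraries of a bait. The test was a two-sided exact sign-flip permutation test over the 8 3T3-L1 libraries, with Benjamini-Hochberg adjustment over all windows. In this permutation test 8 libraries cannot give a p below 0.00781. With 1 library left out this limit is higher, so a call can then be lost through the coarser test alone.

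Cebpb, the gene of an early C/EBP factor, reached 3.46 in its lowest Pparg library, a median of 4.52 and 7.28 in its highest. Every one of the 8 libraries lay above 1, and the lowest lay above the highest library of each of the other 9 loci with this bait. Its mean was 4.79 ± 1.26 (SD, n = 8; exact permutation test, adjusted p = 0.0184). Summed over the 8 libraries its multiple was 4.69, at the 99.8th percentile of the windows. With each site counted once the mean was 3.12 (adjusted p = 0.0277).

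Rxra, the gene of the PPARγ partner, ranged from 1.52 over a median of 2.33 to 3.38, a mean of 2.46 ± 0.62. Klf4, a Krüppel-like factor that acts on Cebpb, ranged from 1.56 over 2.5 to 2.78, a mean of 2.37 ± 0.42. Both lay above 1 in 8 of 8 libraries (exact permutation test, adjusted p = 0.0184 each), and their ranges overlapped, so their order is not settled. Srebf1, which drives lipogenesis, also stood above 1 in all 8 libraries, at 1.86 ± 0.70 with a lowest value of 1.09. Thus 4 loci were above in every library and 0 below, against 12.4% and 30.1% of all windows.

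Cebpd, the other early C/EBP gene, and Nr1h3, the LXRα gene, passed at 1.45 ± 0.41 and 1.41 ± 0.60, each above 1 in 7 of 8 libraries (exact permutation test, adjusted p = 0.0391). Both calls were lost when any library but the library 2 of day 6 was left out, with means of 1.39 to 1.55 for Cebpd and 1.33 to 1.61 for Nr1h3 over the 8 sets. Cebpa, whose protein works beside PPARγ in the mature fat cell, was at 1.42 ± 0.66 and did not pass (adjusted p = 0.159, exact permutation test). Nr3c1 at 1.13 ± 0.33, Ebf1 at 0.97 ± 0.84 and Klf5 at 0.95 ± 0.52 lay near the genome level. With each site counted once 4 loci remained higher, and Srebf1 (1.78, adjusted p = 0.0578) and Nr1h3 (1.49, adjusted p = 0.0672) missed the threshold in that permutation test.

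With the Lpin1 bait the order changed, and Cebpa led. Here 7 loci were higher than the other autosomes and none was lower, where 18.1% of the 2285 windows were higher and 32.8% lower. They were Cebpa, Cebpb, Ebf1, Rxra, Nr3c1, Cebpd and Srebf1. The median of the 10 loci was 1.55 and that of the windows 0.92.

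Cebpa lay between 1.43 and 3.47 with a median of 2.96, above 1 in 8 of 8 libraries, and 4 of the 8 libraries lay within 2.93 to 3.10. Its mean was 2.70 ± 0.73 (SD, n = 8; exact permutation test, adjusted p = 0.0219). Summed over the 8 libraries its multiple was 2.76, at the 98.8th percentile of the windows. Cebpb followed at 2.33 ± 0.84 (0.863 to 3.56, above 1 in 7 of 8; adjusted p = 0.0342). The ranges of these leading loci overlapped each other and those of Ebf1 (1.98 ± 0.76) and Rxra (1.93 ± 0.78), so no order among the 4 is shown by the libraries.

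Nr3c1, the gene of the receptor for dexamethasone, was at 1.61 ± 0.53, Cebpd at 1.5 ± 0.45 and Srebf1 at 1.33 ± 0.21. Srebf1 was the steadiest locus of this bait, with all 8 libraries between 1.07 and 1.71. Its chromosome 11 was at 1.19 ± 0.07, and the locus was at 1.02 ± 0.38 times its flanks, above them in 3 of 8 libraries. Cebpa and Srebf1 were the 2 loci above in every library, and 0 were below in every library, against 11% and 24.6% of windows. Nr1h3 was at 1.54 ± 0.97 and did not pass (adjusted p = 0.0891, exact permutation test), its libraries running from 0 to 3.26. Klf4 at 1.00 ± 0.40 and Klf5, a Krüppel-like factor induced early, at 0.72 ± 0.45 were not above the genome level. With each site counted once only Cebpa (2.47) and Rxra (1.66) were called, both at an adjusted p of 0.0465 in the permutation test. The other 5 kept means of 1.25 to 2.20 without passing. When single libraries were left out, Cebpa and Srebf1 stayed called. Nr3c1 was lost without any library but the library 1 of day 0 (means 1.49 to 1.73 over the 8 sets), and Cebpb, Ebf1, Rxra and Cebpd without any but the library 2 of day 6 (2.15 to 2.54 for Cebpb, 1.81 to 2.18 for Ebf1).

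With the Ifng bait, the lymphocyte gene, 9 of the 10 loci were met less often in 3T3-L1 than the rest of the genome. The other, Cebpd, was higher, where 46.1% of 2277 windows were lower and 20.1% higher. The median multiple was 0.50 over the loci and 0.83 over the windows. Cebpa (0.346 ± 0.163), Rxra (0.354 ± 0.162), Klf4 (0.358 ± 0.148) and Srebf1 (0.410 ± 0.215) were lowest, below 1 in 8 of 8 libraries each. Below 1 in every library were 8 loci and above in every library 0, against 36.5% and 14.4% of the windows.

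Rxra ran from 0, in the library 1 of day 1, over a median of 0.414 to 0.482, so that its highest Ifng library was under its lowest Pparg library of 1.52. Nr3c1 (0.491 ± 0.083), Ebf1 (0.524 ± 0.143), Klf5 (0.596 ± 0.157) and Nr1h3 (0.598 ± 0.257) were also low throughout, all with an adjusted p of 0.0153 in the exact permutation test. Cebpb, the locus met most with Pparg, was at 0.608 ± 0.311 here (0.206 to 1.09, below 1 in 7 of 8, adjusted p = 0.0262). With each site counted once 7 loci remained lower, Cebpb (0.64, adjusted p = 0.251, exact permutation test) and Srebf1 (0.51, adjusted p = 0.0596) missing the threshold.

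Cebpd stood apart at 1.5 ± 0.46 with this bait (0.982 to 2.11, above 1 in 7 of 8 libraries, adjusted p = 0.0262 in the exact permutation test). Its whole chromosome was high with Ifng: chromosome 16 had 2.56 ± 0.36 times the captured share of the other autosomes, while the chromosomes of the other loci were between 0.70 and 0.92. The locus was therefore below its own chromosome. With each site counted once the mean was 1.26 and the call was lost (adjusted p = 0.558, exact permutation test). The calls of Cebpd and of Cebpb with Ifng were also lost when any library but the libraries 1 of days 1 and 6 was left out, with means of 1.41 to 1.57 and 0.539 to 0.665.

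The sum of the 10 loci gives the same contrast in single libraries and is a description only, as the genes were chosen together. It was 1.29 to 2.15 times the other autosomes in the 8 Pparg libraries (mean 1.81 ± 0.26), 0.966 to 2.08 in the 8 Lpin1 libraries (1.62 ± 0.32) and 0.373 to 0.690 in the 8 Ifng libraries (0.579 ± 0.098). No Ifng library of 3T3-L1 reached the lowest 3T3-L1 library of the other baits. In B cells the sum was at 1.01 with Ifng, 1.57 with Pparg and 1.71 with Lpin1. The lowest Pparg and Lpin1 values both came from the library 2 of day 6, the shallowest of its bait, with 18 and 14 captured sites.

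The flanks ask whether a locus exceeded its own neighbourhood. With Lpin1, Cebpa was met 3.78 ± 2.11 times as often as its flanks and Cebpb 2.39 ± 0.98 times, each above in 8 of 8 libraries (exact permutation test, adjusted p = 0.0422), where 7.05% of windows were higher than their flanks and 11.5% lower. Both calls were lost with each site counted once (4.56 and 2.24, adjusted p = 0.0793 and 0.118 in the permutation test). They were also lost when any library was left out (3.30 to 4.03 and 2.19 to 2.58). Both had stood at the smallest p that 8 libraries allow, which a smaller set cannot reach, so this loss says little about the loci. With flanks of 0.5 to 1 Mb alone Cebpa was at 1.49 and Cebpb at 2.20, and neither was called (adjusted p = 0.078 and 0.126, exact permutation test). Ebf1 (2.14 ± 0.78, adjusted p = 0.0616) and Nr3c1 (2.12 ± 1.42, adjusted p = 0.0789) did not pass in the permutation test.

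With Pparg, Cebpb was above its flanks in 8 of 8 libraries, at 2.27 ± 0.49 times, yet no locus was called. It was the 1 locus above its flanks in every library and 0 were below, against 5.23% and 9.48% of windows. The sign-flip permutation test called 0 of the 2257 windows, 0 higher and 0 lower, with 868 at an unadjusted p under 0.05, and the adjusted p of Cebpb, 0.0531, is shared by every window above or below its flanks in all 8 libraries. Klf5 was above its flanks in each of the 7 libraries that captured it, at 2.91 ± 2.65 times. Cebpa was at 4.99 ± 3.31 over the 7 libraries that captured sites in its flanks. Summed over the 8 libraries these values were 2.15 and 3.39. Neither locus passed against its flanks (adjusted p = 0.0686 each, exact permutation test), nor was either called against the other autosomes. Rxra (1.19 ± 0.37) and Srebf1 (1.06 ± 0.23) were about as high as their flanks, so their surplus over the genome extended past the locus.

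With Ifng, 7 loci were lower than their flanks (Cebpb, Klf5, Nr3c1, Klf4, Cebpa, Cebpd and Ebf1), where 21.5% of windows were lower and 16.3% higher. In every library 6 loci were below their flanks and 0 above, against 16.9% and 11.4% of windows. Cebpb was lowest of them at 0.396 ± 0.231 times its flanks, below in 8 of 8 libraries (exact permutation test, adjusted p = 0.0276). Cebpd was at 0.659 ± 0.112, so the one locus above the genome with this bait was below its neighbourhood. None of the 7 was called with each site counted once (0 of 10), when the adjusted p of Cebpb was 0.0703 in the permutation test. The calls other than Ebf1 were also lost when any library but the libraries 1 of days 1 and 6 was left out, and Ebf1 without any but the library 1 of day 1, with Cebpb then at 0.340 to 0.435 and Ebf1 at 0.645 to 0.733 over the 8 sets.

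Within the loci, the share with Pparg was highest within 100 kb for Cebpb, Rxra, Cebpa, Klf5, Cebpd, Ebf1 and Nr3c1. With Lpin1 this was so for Cebpa, Rxra, Nr1h3, Ebf1, Srebf1 and Nr3c1. It was not so for Srebf1, Klf4 and Nr1h3 with Pparg, nor for Cebpb, Cebpd, Klf4 and Klf5 with Lpin1. The multiples of these zones use captured sites summed over the 8 libraries of a bait. For Cebpb with Pparg the multiple was 6.81 within 100 kb of the position, 6.54 from 100 to 250 kb, 2.70 from 250 to 500 kb and 1.85 from 500 to 1000 kb. The side towards lower coordinates stayed high, at 5.46 around 1375 kb away, while the bin 1625 kb to the other side was at 0.15. For Cebpa with Lpin1 the steps were 4.15, 3.28, 1.94 and 2.00, and then 0.59 from 1000 to 2000 kb. Rxra fell from 4.60 to 1.61 with Pparg and from 3.40 to 1.36 with Lpin1 between the innermost zone and the zone from 250 to 500 kb. Within 100 kb and from 100 to 250 kb, Klf4 with Pparg was at 1.42 and 2.78, Cebpb with Lpin1 at 2.35 and 3.22, and Srebf1 with Pparg at 2.09 and 2.19. These zones were not tested.

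**Figure D1:**
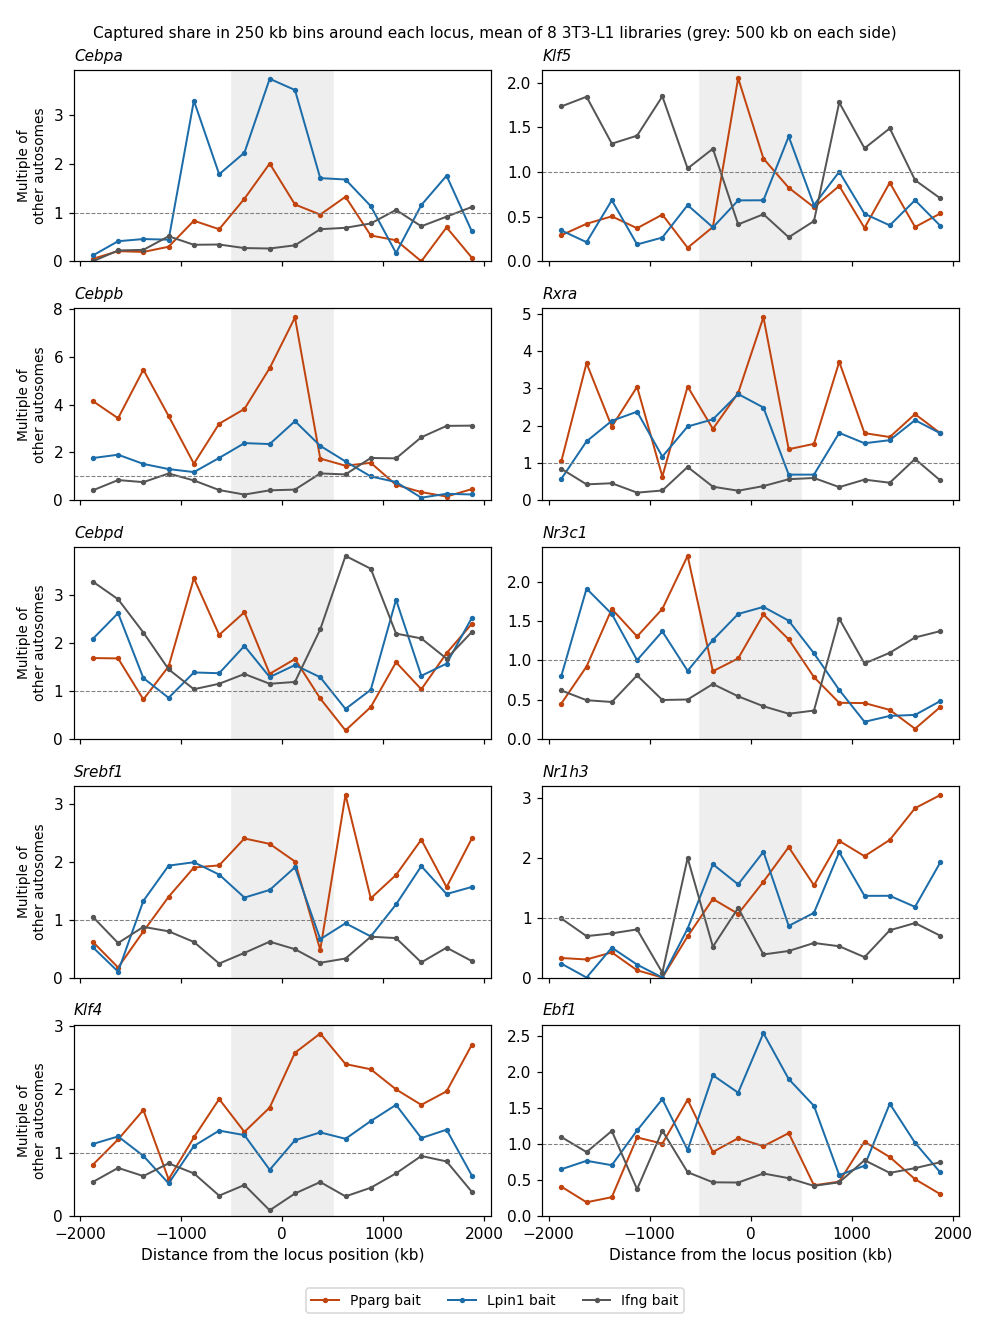
Multiple of the other autosomes (y axis, linear, own scale per panel) in bins of 250 kb by distance from each locus position (x axis, kb), for the 3 baits. Captured sites were summed over the 8 3T3-L1 libraries of a bait, and the mean named in the title is this pooled value. The Pparg line for Cebpb peaks at 7.65 beside the position and stays above 1 on the side of lower coordinates, the Lpin1 line for Cebpa peaks at 3.74, and the Ifng line lies under both across the grey 500 kb zones of all loci but Cebpd, Klf5 and Nr1h3.

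Single sites show how thin the contacts were. The site most often captured near Cebpb (chr2:167678493-167678498) had reads in 10 of 27 libraries: 5 of the 8 Pparg libraries, 4 of the 8 Lpin1 libraries, the Lpin1 B cell library and 0 of the 8 Ifng libraries. For Cebpa, the site nearest to the position among the 3 most captured (chr7:35938324-35938329, 38.3 kb away) had reads in 5 Lpin1 3T3-L1 libraries and the Lpin1 B cell library, and in no library of the other baits. Sites that recur within a bait and in no other were also seen at Klf5 (chr14:100104988-100104993, 5 Lpin1 libraries and its B cell library) and at Ebf1 (chr11:44257410-44257415, likewise). The other baits had such sites too. With Ifng one lay at Nr1h3 (chr2:90806788-90806793, 6 libraries and its B cell library). Klf5 (chr14:99902718-99902723) and Ebf1 (chr11:44609131-44609136) each had one in 4 Ifng libraries and its B cell library. With Pparg one lay at Rxra (chr2:27520156-27520161, 4 libraries and its B cell library). Such recurrence is part of the sharing between libraries of a bait described above. Over all 27 libraries, 64.9% of the Cebpb sites and 48.4% of the Cebpa sites were read at least once, against 37.7% of the sites on all autosomes.

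Comparing baits at a locus counts the same HindIII sites on both sides. Pparg met 9 of the 10 loci more often than Ifng did, all but Cebpd, and Lpin1 met 8 more often, all but Cebpd and Klf5; none was lower. With Pparg 8 were called with the library number as a block, and 5 after thinning, with reads or with the libraries numbered 2 alone. Of 1959 windows, 34% were higher with Pparg and 33.8% with Lpin1, while 42.9% and 38% were lower. Captured sites were tested with edgeR's quasi-likelihood test over the 24 3T3-L1 libraries with the day as a covariate and Benjamini-Hochberg adjustment over windows. The comparisons share the 8 Ifng libraries, so that their likeness is in part a matter of design.

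Against Ifng, the difference for Cebpb was 2.85 ± 0.24 with Pparg (log2 ± SE, edgeR adjusted p = 2.85e-31) and 1.91 ± 0.27 with Lpin1 (2.07e-11). Rxra was at 2.59 ± 0.25 and 2.13 ± 0.27, and Cebpa at 1.57 ± 0.30 and 2.57 ± 0.26. Klf4 was at 2.35 ± 0.24 and 1.36 ± 0.29, and Srebf1 at 1.83 ± 0.25 and 1.39 ± 0.28. These 5 loci thus lay 1.36 or more above Ifng on the log2 scale with both baits.

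The receptors Nr3c1 (1.13 ± 0.26 with Pparg, 1.41 ± 0.25 with Lpin1) and Nr1h3 (1.13 ± 0.26 and 1.12 ± 0.27) were met more often at smaller differences. Ebf1 was at 0.81 ± 0.26 with Pparg and 1.75 ± 0.23 with Lpin1. The Pparg calls of all 3 were lost by edgeR after thinning (0.86, 0.84 and 0.75, adjusted p = 0.0552, 0.0518 and 0.105) and with the libraries numbered 2 alone (0.92, 0.61 and 0.60, adjusted p = 0.103, 0.313 and 0.321). Those of Nr1h3 and Ebf1 were also lost with loci of 250 kb (0.46 and 0.62, adjusted p = 0.237 and 0.112 by edgeR) and with reads (1.80 and 1.14, adjusted p = 0.0733 and 0.222), and that of Ebf1 with at least 2 reads (0.77, adjusted p = 0.051). With the libraries numbered 1 alone all 3 were called, at 1.33, 1.43 and 0.89. Klf5 passed only narrowly with Pparg, at 0.56 ± 0.25 (edgeR adjusted p = 0.0376). This call was lost with the library number as a block (0.52, adjusted p = 0.063 by edgeR) and when any of 7 libraries was left out (Pparg library 1 of days 1, 2 and 6, and Ifng libraries 1 of days 0, 2 and 6 and 2 of day 2), its log2 difference then being 0.46 to 0.55. Cebpd, at -0.15 ± 0.22 and -0.24 ± 0.23, and Klf5 with Lpin1, at 0.15 ± 0.29, did not pass.

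The zero of these values depends on the scaling: DESeq2's size factors moved the median window from -0.26 to -1.28 for Pparg minus Ifng and from -0.12 to -0.92 for Lpin1 minus Ifng. Relative to the median window the loci hardly moved. Cebpb with Pparg was 3.10 above it by edgeR and 3.15 by DESeq2, Cebpa with Lpin1 2.69 and 2.78, and Ebf1 with Pparg 1.07 and 1.09. The median of the 10 loci was 1.61 and 1.67 above the median window for Pparg, and 1.52 and 1.56 for Lpin1. On its own zero DESeq2 called 4 loci higher and 1 lower for Pparg, and 5 higher and 1 lower for Lpin1, the lower one being Cebpd each time. Of the 1959 windows it called 300 higher and 1224 lower for Pparg, and 251 higher and 1082 lower for Lpin1.

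**Figure D2:**
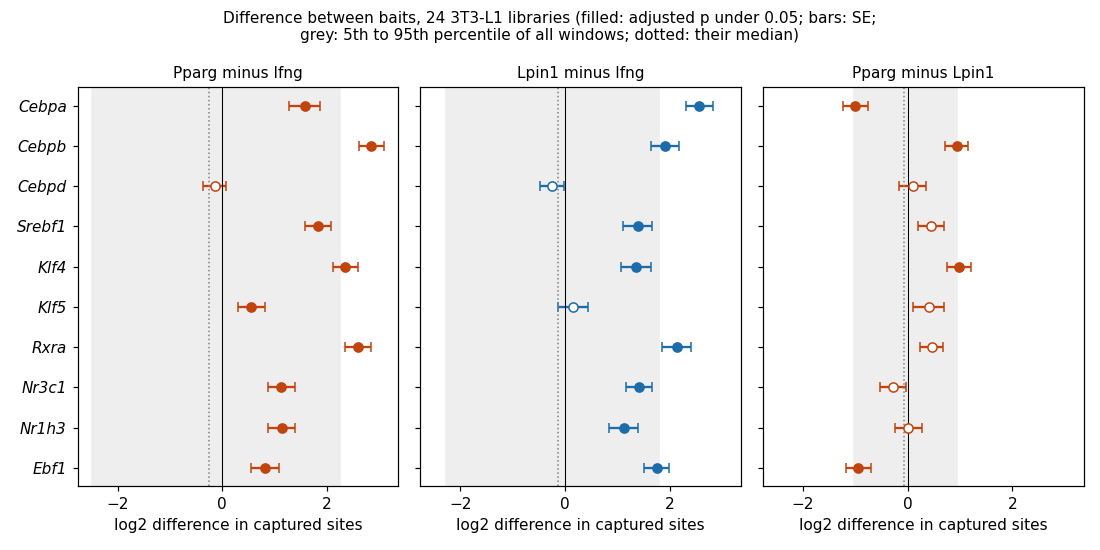
Difference between baits in captured sites of each locus (x axis, log2; bars, SE; 24 3T3-L1 libraries), with filled points for an edgeR adjusted p under 0.05, the 5th to 95th percentile of all windows in grey and their median dotted. Cebpb with Pparg minus Ifng, at 2.85, and Cebpa with Lpin1 minus Ifng, at 2.57, lie beyond the grey ranges, whose upper ends are 2.25 and 1.80.

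Pparg and Lpin1 differed from each other at 4 loci. Cebpb (0.94 ± 0.22, edgeR adjusted p = 0.000627) and Klf4 (0.99 ± 0.23, adjusted p = 0.000729) were met more often with Pparg, where 11.9% of windows were higher. Cebpa (-1.0 ± 0.24, adjusted p = 0.00107) and Ebf1 (-0.94 ± 0.24, adjusted p = 0.00185) were met more often with Lpin1, where 6.48% of windows were lower. None of the 4 was called by edgeR with each site counted once (0.56, 0.82, -0.75 and -0.64), with reads in place of captured sites or with the libraries numbered 2 alone. With the libraries numbered 1 alone all 4 were called, Cebpb at 0.84 and Cebpa at -1.21. The other 6 loci lay between -0.28 (Nr3c1) and 0.46 (Rxra) and did not pass. The split of called windows, 64.7% of them higher, moved to 25.1% with DESeq2 and 48.8% with no scaling factor, which left the same number of loci called, 2 higher and 2 lower.

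Over differentiation no change was called at any locus. For each bait, days 1, 2 and 6 were compared with day 0 in an edgeR quasi-likelihood fit of its 9 libraries, and 0 of the 10 loci were called in any of the 9 comparisons, nor by DESeq2. Of the 1636 windows tested with Pparg, 0%, 0.0611% and 0.122% were called by edgeR on days 1, 2 and 6, and 0% of the 1860 windows with Lpin1 and of the 2230 with Ifng, so the background was near 0 as well. With 2 libraries a day the standard errors were large, and sizeable differences did not pass either. Klf5 with Lpin1 was at -1.99 ± 1.23 on day 6 (log2 ± SE, edgeR adjusted p = 0.792), and Nr1h3 at -1.36 ± 0.79 (adjusted p = 0.779). The lack of calls therefore does not exclude changes of that size.

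Cebpb with Pparg went from 4.52 ± 0.51 on day 0 (SD, n = 2) to 6.39 ± 1.26 on day 1, 4.41 ± 1.34 on day 2 and 3.85 ± 0.36 on day 6. Cebpa with Lpin1 went from 2.27 ± 1.18 to 3.02 ± 0.06, 3.20 ± 0.38 and 2.31 ± 0.89. Both loci were thus met above the genome level on day 0, before the cocktail, and on every later day. With Ifng, Cebpb stayed at 0.385 to 0.902 on the 4 days and Cebpa at 0.163 to 0.540.

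Across days, 4 of 90 differences at the loci (4.44%) reached an unadjusted p under 0.05 in edgeR, no more than the 6.21% over all windows, and none passed the adjustment. Ebf1 with Pparg was 1.17 ± 0.50 higher on day 2 than on day 0 (log2 ± SE, edgeR adjusted p = 0.442), its libraries being at 1.17 and 2.78 against 0.68 and 0.38. With Lpin1, Klf4 was at -1.08 ± 0.53 on day 1 (adjusted p = 0.897 by edgeR), and Nr3c1, whose product dexamethasone binds, at 0.82 ± 0.39 on day 2 (adjusted p = 0.826). With Ifng, Cebpa was at -1.64 ± 0.73 on day 1 (adjusted p = 0.997 by edgeR). Set against the change of the Ifng bait from day 0 to day 6, the changes of Pparg and Lpin1 were called different at 0 of the 10 loci by edgeR and by DESeq2, with 0.051% of 1959 windows called. At an unadjusted p under 0.05 edgeR had 0 loci for Pparg and 1, Nr1h3, for Lpin1, where it had 8.47% and 7.15% of windows.

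**Figure D3:**
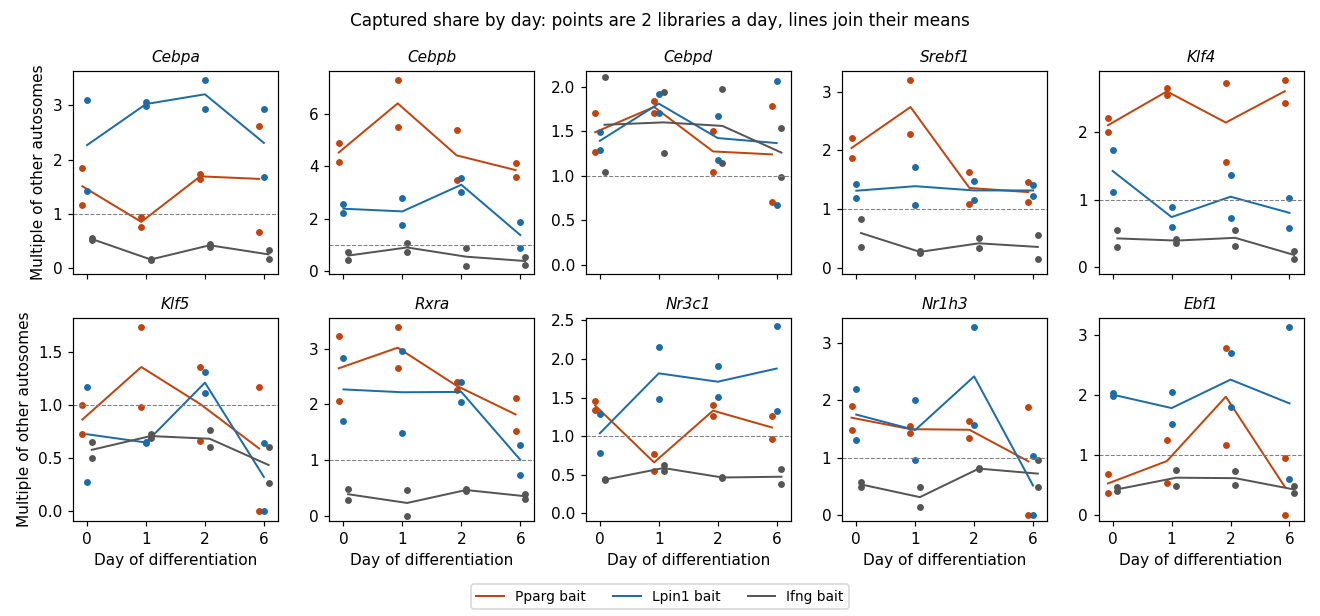
Multiple of the other autosomes (y axis, linear, own scale per panel) by day of differentiation (x axis), one panel per locus; points are the 2 libraries of a day and lines join their means. Cebpb with Pparg stays between 3.46 and 7.28 on all 4 days, its 2 libraries of day 1 lying at 7.28 and 5.50.

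The B cell libraries have no replicate, so their intervals are exact (Clopper-Pearson, 95%) and cover counting error only, and the edgeR fit assumes that they vary like the 3T3-L1 libraries. Its p-values therefore compare these single libraries with 3T3-L1, not the cell types. With the Ifng bait, the B cell library met Cebpb and Klf5 more often than the 3T3-L1 libraries did. Cebpb was captured at 13 of 251 sites (5.18%, interval 2.79% to 8.69%), a multiple of 2.42, against 0.206 to 1.09 in 3T3-L1. Klf5 was captured at 15 of 342 sites (4.39%, interval 2.48% to 7.13%), a multiple of 2.05, against 0.263 to 0.758 in 3T3-L1. The B cell value lay above all 8 3T3-L1 libraries for both.

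The differences were 2.13 ± 0.51 for Cebpb (log2 ± SE, edgeR adjusted p = 0.0102) and 1.73 ± 0.44 for Klf5 (adjusted p = 0.0135), where 3.32% of 2230 windows were higher and 0.224% lower. Both calls held with each site counted once, at 2.91 and 2.28. DESeq2 gave 2.16 and 1.84 and called neither (adjusted p = 0.396 each), and edgeR called neither after thinning reads to the shallowest library (adjusted p = 0.0751 and 0.0746) or with sites that other baits also captured (1.88 and 0.68, adjusted p = 0.293 and 0.819). With 250 kb on each side Klf5 was not called (adjusted p = 0.334 by edgeR), and Cebpb was under the minimum for the fit. Against its own flanks in B cells, Cebpb was at 1.16 times and Klf5 at 1.71 times. In 3T3-L1 the flanks were already above 1 with this bait, summed over the 8 libraries. From 500 to 1000 kb and from 1000 to 2000 kb they were at 1.03 and 1.89 for Cebpb, and at 1.27 and 1.34 for Klf5. Whether the flanks differed between the cells was not tested. The other 8 loci of this bait lay between 0.50 (Klf4) and 1.02 (Cebpd) in B cells and did not pass.

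With the other baits no locus was called between B cells and 3T3-L1 by edgeR or DESeq2, where edgeR called 0.122% of windows higher and 0% lower with Pparg, and 0.484% higher and 0.108% lower with Lpin1. At an unadjusted p under 0.05 edgeR had 1 of 10 loci with each bait, where it had 11.2% of windows with Pparg and 14.7% with Lpin1. With Pparg this was Cebpb, met at 4 of 251 sites in B cells (1.59%, interval 0.44% to 4.03%), a multiple of 1.57 under the lowest 3T3-L1 library of 3.46, with a difference of -1.51 ± 0.66 (edgeR adjusted p = 0.347). With Lpin1 it was Nr3c1, met at 34 of 357 sites (9.52%, interval 6.69% to 13.0%), a multiple of 2.77 above the highest 3T3-L1 library of 2.43, with a difference of 0.91 ± 0.30 (edgeR adjusted p = 0.111). That difference was 1.5 and passed with each site counted once (edgeR adjusted p = 0.0158). Ebf1, a factor of both lineages, was at 2.65 with Lpin1 in B cells, within its 3T3-L1 range, and Cebpa at 1.58 (14 of 258 sites), where the 3T3-L1 range was 1.43 to 3.47.

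At Cebpb edgeR called the B cell difference unlike between baits, though each bait has 1 B cell library and the spread comes from 3T3-L1. Relative to the Ifng bait, B cells minus 3T3-L1 was -3.74 ± 0.86 with Pparg (log2 ± SE, edgeR interaction adjusted p = 0.00938) and -2.61 ± 0.74 with Lpin1 (adjusted p = 0.0349), where 0.97% and 1.17% of windows were lower and 0.51% higher in each. Cebpb was the single locus called in either interaction, and both use the same Ifng B cell library. The Pparg value rests also on the 4 of 251 sites of the Pparg B cell library. With each site counted once both passed, at -4.56 and -4.17. DESeq2, at -2.91 and -2.06, called neither (adjusted p = 0.166 and 0.564), nor did edgeR with reads, with loci of 250 kb or with sites of other baits, and the Lpin1 call was lost without any of 5 libraries (Ifng library 2 of day 1, 1 of day 2 and 2 of day 6, and Lpin1 library 1 of days 1 and 6), at -2.30 to -2.51.

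**Figure D4:**
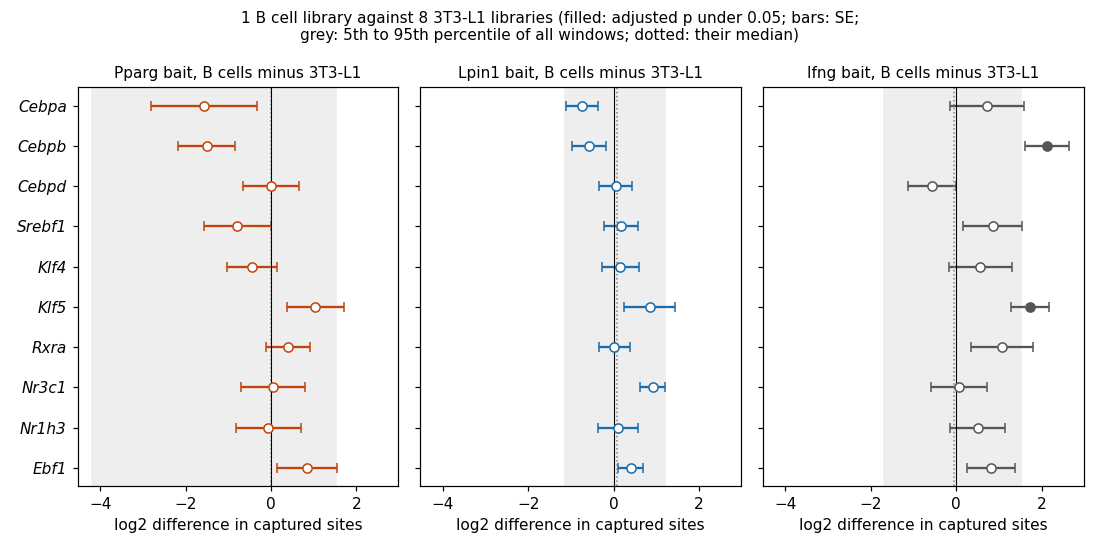
Difference between the 1 B cell library and the 8 3T3-L1 libraries of each bait in captured sites of each locus (x axis, log2; bars, SE of the edgeR fit), with filled points for an adjusted p under 0.05, the 5th to 95th percentile of all windows in grey and their median dotted. Cebpb at 2.13 and Klf5 at 1.73 with the Ifng bait are filled; the Pparg value of Cebpb, -1.51, lies inside the grey range.

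A locus holds more than the gene it is named for, and 4C does not tell them apart at this scale. In the RefSeq order of GRCm38.p6 the nearest protein-coding neighbours were Tmem189 and Ptpn1 for Cebpb, Wdr5 and Col5a1 for Rxra, Rad23b and Actl7b for Klf4, and Pemt and Tom1l2 for Srebf1. Cebpa lies near Cebpg, another C/EBP gene, and near Slc7a10. Klf5 lies between Pibf1 and Klf12, Cebpd between Mzt2 and Pkp2, Nr1h3 between Madd and Ddb2, Nr3c1 between Arhgap26 and Pabpc2, and Ebf1 between Rnf145 and Clint1. The contacts counted are therefore those of these neighbourhoods.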

How the data were processed

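The authors deposited 27 tables of raw read counts, one whole number for each of 823355 HindIII sites. Per the labels' protocols, chromatin crosslinked with formaldehyde (2%, 10 min) was digested with HindIII and religated, then circularised through DpnII. Alignment used Bowtie on mm9, per the submitters' processing notes, with no version; read filters and duplicate removal are not given in the sources used here. Library numbers come from the names of the deposited tables. A site was captured with at least 1 read, because PCR copies of 1 ligation are not separate events. Windows of 1 Mb with at least 50 sites were the background, each locus replacing the windows it overlaps. Windows with a mean of at least 3 captured sites were fitted in edgeR 4.0.16 (R 4.3.3, quasi-likelihood, robust, TMM), checked on simulated data, with DESeq2 1.42.0 as an alternative. Permutation tests used SciPy 1.17.1 and NumPy 2.4.6. All 10 loci are named; sites named are among the 3 captured in most libraries of a locus. Members, lists and tests were chosen with earlier results of these data known. Other pathway genes were not analysed here, as no mm9 annotation was used.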

Additional observations from a re-analysis of the deposited data

Results flagged for a closer look

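Among 30 groups of 8 libraries (10 loci, 3 baits), 3 had a library far from the other 7, and chance sets about 1 in 20 such groups apart. Nr1h3 with the Pparg bait was at 0 in the library 2 of day 6, where the other 7 libraries were at 1.34 to 1.90. Ebf1 with the Pparg bait was at 2.78 in the library 2 of day 2, against 0 to 1.26 in the others. Rxra with the Ifng bait was at 0 in the library 1 of day 1, against 0.29 to 0.48. The Pparg library captured 18 sites over the 10 loci and the Ifng library 49. The part of depth in these values was not tested.

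The B cell difference of Cebpb was called unlike between baits, at -3.74 for Pparg minus Ifng and -2.61 for Lpin1 minus Ifng (log2, edgeR interaction adjusted p = 0.00938 and 0.0349). Both rest on the 13 sites of the single Ifng B cell library and on the single B cell library of the other bait, which captured 4 of 251 sites with Pparg. No second B cell library of any bait was at hand.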

How the results depend on the processing

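Against other autosomes, counting only sites that another bait also captured called 2 loci higher for Pparg, 2 for Lpin1 and 5 lower for Ifng. Thinning reads to the shallowest library of a bait called 3 higher for Pparg and 0 for Ifng. Asking for at least 2 reads called 3 higher for Lpin1 and 0 for Ifng. Loci of 250 kb on each side called 0 higher for Ifng, and loci of 1 Mb called 1 lower for Lpin1. Each site counted once, an alternative added after seeing the data, called 2 higher for Lpin1 and 0 for Ifng. Leaving out 1 library called 2 to 6 higher for Lpin1 and 0 to 1 for Ifng. Against flanks, the calls (Lpin1 2 higher, Ifng 7 lower) were 0 and 0 with at least 2 reads, with sites of other baits and with each site counted once, and 0 and 2 with flanks of 0.5 to 1 Mb. Loci of 250 kb called 1 higher for Lpin1, and loci of 1 Mb called 4 higher for Pparg, 1 lower for Lpin1 and 4 lower for Ifng. Leaving out 1 library called 0 to 0 higher for Lpin1 and 0 to 7 lower for Ifng. Without 1 library the permutation test cannot reach as small a p, against flanks or other autosomes. The share of all windows called under each of these settings is not given here, so these counts cannot be set against a background.

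For Pparg minus Ifng, thinning, reads in place of captured sites and libraries numbered 2 alone called 5 loci higher, DESeq2 called 4 higher and 1 lower, and loci of 1 Mb called 1 lower. Of all windows, thinning called 473 of 1804 higher, reads 355 of 1959 and libraries numbered 2 alone 448 of 1926. Loci of 1 Mb came with 447 of 1001 windows lower. For Lpin1 minus Ifng, DESeq2 called 5 higher and 1 lower, and loci of 1 Mb called 2 lower, where 375 of 1001 windows were lower. For Pparg minus Lpin1, each site counted once, reads and libraries numbered 2 alone called 0 higher and 0 lower. Loci of 1 Mb called 4 higher, where 180 of 1001 windows were higher. Over all windows, the calls of this comparison, 233 higher and 127 lower, were 30 and 10 with each site counted once, 1 and 2 with reads and 63 and 188 with DESeq2. The B cell calls of Ifng were 0 with DESeq2, thinning, loci of 250 kb and sites of other baits. Of all windows, these settings called 0 of 2230, 52 of 2109, 20 of 3959 and 0 of 1214 higher. Lpin1 had 1 call, higher in B cells, with loci of 1 Mb and with each site counted once. There 24 of 1132 and 42 of 1679 windows were higher. The B cell differences between baits, a comparison added after seeing the data, were called 0 times with loci of 250 kb, sites of other baits, reads and DESeq2, and for Lpin1 minus Ifng also with thinning and at least 2 reads, and 0 to 1 times with 1 library left out.

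Signs turned mostly at loci that were not called, but also at Klf5 and Ebf1, which were called for Pparg minus Ifng. The loci whose sign turned in that comparison were Cebpd (0.064 with 250 kb, 0.27 with each site counted once), Klf5 (-0.33 with 1 Mb, -0.45 with DESeq2) and Ebf1 (-0.19 with DESeq2). For Lpin1 minus Ifng these were Cebpd (0.33 with reads, 0.043 with libraries numbered 2) and Klf5 (-0.53 with 1 Mb, -0.66 with DESeq2, -0.22 with libraries numbered 2, and -0.046 to 0.35 with 1 library left out). For Pparg minus Lpin1 these were Cebpd (-0.10 with at least 2 reads, -0.31 thinned, -0.96 with reads, -0.14 with DESeq2, -0.29 with libraries numbered 2), Srebf1 (-0.058 with reads), Rxra (-0.11 thinned) and Nr3c1 (0.025 with 1 Mb). Nr1h3 there, at 0.01, had no settled sign: -0.037 with at least 2 reads, -0.43 with 250 kb, -0.11 thinned, -0.035 with each site counted once, -0.21 with reads and with DESeq2, -0.080 with no scaling, -0.81 with libraries numbered 2, and -0.11 to 0.23 with 1 library left out. The causes were not tested.

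With the library number as a block, the counts of called loci stayed within 1.5 times, and of single loci only Klf5 for Pparg minus Ifng lost its call (0.52, adjusted p = 0.063 by edgeR, 8 loci called higher). The main tests did not take the numbers to pair the samples. Differences between numbers 1 and 2 correlated over 0.1 in 4 of 6 pairs of days for Pparg, 1 for Lpin1 and 4 for Ifng. These correlations ran from -0.0345 to 0.305 in all. Libraries of the same number are thus not shown to be independent across days. The Pparg libraries numbered 2 do stand together in their shared sites, at 13.0 to 21.1 times chance against 1.85 to 3.18 across numbers. The day comparisons had 0 calls under every alternative run. The number of captured sites limits all values. Of the captured sites on other autosomes, 14.2% to 74.1% per library had 1 read.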
